A study of Mus musculus with 6 samples.

Results

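Astrocytes_1 was the larger of the 2 astrocyte subtypes that the authors annotated in the mouse cortex at postnatal day 5 (P5). Its members were all cells to which the deposited annotation gives that subtype name. They numbered 6371 of 18393 cells (34.6%), against 751 cells (4.08%) in Astrocytes_2. Single cortical cells were captured with InDrop, a droplet method in which every transcript caught on a bead receives its own molecular tag (unique molecular identifier, UMI), from 3 WT and 3 Fmr1-KO mice. Both groups were on the FVB.129P2-Pde6b+ Tyrc-ch background, the WT mice as its /AntJ line and the Fmr1-KO mice with the allele Fmr1tm1Cgr/J. The mutation is carried in the germline, so every cell type of an Fmr1-KO mouse lacks a working gene, and a difference in astrocytes may have begun in other cells. The cortex of both hemispheres was used, no mouse received a treatment, and the labels give no sex, while the study's methods say that both sexes were used. WT 1, Fmr1-KO 1 and Fmr1-KO 2 were processed with V2 beads, and WT 2, WT 3 and Fmr1-KO 3 with V3.8 beads.

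The members came to 826, 1816 and 1489 cells in WT 1, 2 and 3, and to 723, 725 and 792 cells in Fmr1-KO 1, 2 and 3. Their summed UMIs per mouse ranged from 2760075 to 11155033, and the median cell held between 2114.5 UMIs (WT 2) and 7113 UMIs (WT 3). After thinning each cell to 700 UMIs, the median number of genes detected lay between 529 and 540 in all 6 mice. A gene's level below is its CPM, the gene's UMIs per 1000000 UMIs summed over the Astrocytes_1 cells of a mouse, and the mouse is the replicate. No 2 mice agreed within sampling noise. Nothing in the labels names litters or days, so p-values measure the spread between these mice.

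Each mouse was sequenced as several libraries, and 17 pairs of libraries of the same mouse shared between 34 and 393 cell barcodes (median 204), whereas 119 pairs from different mice shared between 0 and 23 (median 0). In all, 992 Astrocytes_1 cells (15.6%) were beyond the first of their barcode within a mouse, from 2.9% in Fmr1-KO 1 to 31.9% in Fmr1-KO 2. Pairs of cells with 1 barcode in 1 mouse, at least 1 of them Astrocytes_1, numbered 1322. In 1194 of these (90.3%) both cells were Astrocytes_1. Whether such pairs were the same cell was not tested. The number of calls, Fmr1 and the shares are also given with such barcodes counted once. In addition, in 2548 of 4814 genes tested (52.9%) the 3 mice with V2 beads and the 3 with V3.8 beads did not overlap in CPM. Mt3, a metallothionein, was at 1170, 1056 and 1174 CPM in the V2 mice and at 226, 186 and 235 CPM in the V3.8 mice. The bead version was therefore a term of the edgeR tests between genotypes, and log2 differences within V2 and within V3.8 beads are given beside pooled ones. The permutation tests of shares and the main interaction tests had no such term. Fmr1-KO 2 also held no UMI of the Y-linked genes Eif2s3y, Uty and Kdm5d, and 24 UMIs of Ddx3y, while Eif2s3y had between 181 and 500 UMIs in each of the other 5 mice, so the genotypes were not matched for Y-linked transcripts.

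Astrocytes clear glutamate and potassium released by neurons, pass water and ions through channels and gap junctions, make cholesterol and lipoproteins that neurons take up, and secrete proteins that shape synapses and the extracellular matrix. In the first postnatal week they still divide locally in the cortex while they acquire these functions. Fmr1 encodes FMRP, an RNA-binding protein that regulates translation and whose loss causes fragile X syndrome.

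The 6 markers given for the subtype were Aqp4 (the water channel of astrocyte end-feet), Aldoc (a glycolytic aldolase), Apoe (the main lipoprotein of the brain), Slc1a3 and Slc1a2 (the glutamate transporters GLAST and GLT-1) and Gja1 (the gap junction protein connexin 43). Aqp4 was at 1173, 1947 and 2319 CPM in the WT mice and at 1604, 1580 and 1861 CPM in the Fmr1-KO mice, with a mean of 1747 against 347 in Astrocytes_2 and 191 in ependymal cells. Among 16 subtypes with at least 10 cells in a mouse, 5 of the 6 markers had their highest mean level in Astrocytes_1. Apoe was the next highest, at 8806 CPM against 9723 in the Ms4a7_high macrophage subtype. Gja1, at 1273 CPM, was within the spread between mice (SD 238, n = 6) of fibroblasts, at 1255 CPM. Slc1a3 was at 7329 ± 2140 CPM (SD, n = 6) against 5490 in Astrocytes_2 and 931 in fibroblasts. A UMI of at least 3 of the markers was found in 99.7% of the cells and of all 6 in 78.1%. Droplets also pick up free RNA, and in excitatory neurons between 7.5% (Gja1) and 37.4% (Apoe) of cells had a UMI of a given marker, against at least 80.1% in every mouse for each marker in Astrocytes_1. The median depth was 1274 UMIs in excitatory neurons and 3755 UMIs in Astrocytes_1. With Astrocytes_1 cells thinned to 700 UMIs, the lowest share in any mouse was 46.6% for Gja1 and 47.5% for Aqp4. The label matched its markers, with Apoe also high in macrophages and Gja1 in fibroblasts. The study named the subtype from these same cells by markers that include Aqp4, Aldoc and Apoe, so the match is no independent check.

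**Figure D1:**
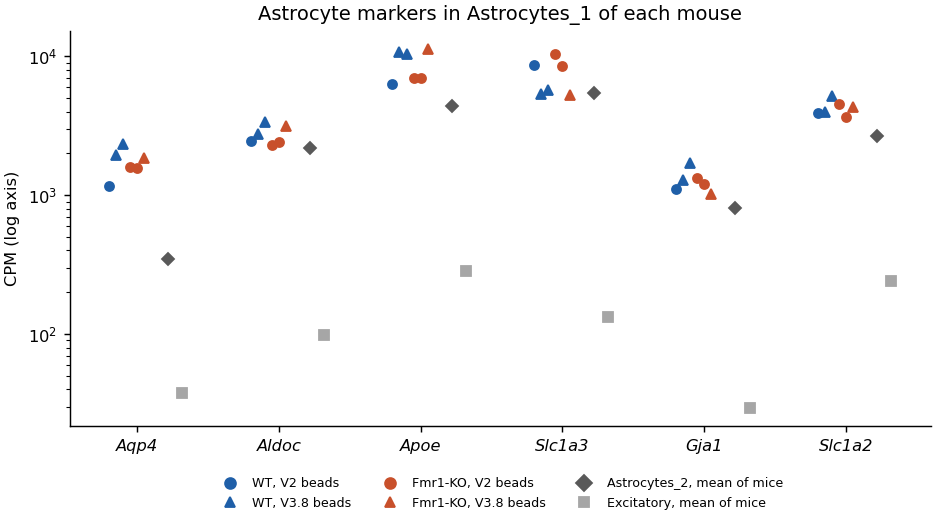
CPM of the 6 astrocyte markers on a log axis in Astrocytes_1, with 1 point per mouse coloured by genotype and shaped by bead version, beside the means over mice in Astrocytes_2 (diamonds) and excitatory neurons (squares). All 6 mice lie above the excitatory neurons for every marker, and the widest gap to Astrocytes_2 is that of Aqp4 (1747 against 347 CPM).

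Markers of other cell types were low. Summed over 10 genes of excitatory neurons, the level in Astrocytes_1 was 28.2 to 327 CPM in WT and 42.2 to 422 CPM in Fmr1-KO mice, or 2.13% of the level in excitatory neurons, and it was higher in each of the 3 mice with V2 beads than in those with V3.8 beads. Lists for interneurons, microglia, endothelial cells, pericytes, oligodendrocytes and ependymal cells stood at 0.377% to 2.17% of the level in their own subtype. The 8 markers of oligodendrocyte precursors summed to 978 to 1253 CPM in WT and 895 to 1221 CPM in Fmr1-KO mice, 8.29% of OPC_1, and most of it was Olig1 (725 CPM), a transcription factor also made by young astrocytes. Of these 8 lists' genes, 2 oligodendrocyte genes had no UMI in any mouse. The part of such RNA in the results below was not tested.

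The genes that led Astrocytes_1 over all other subtypes were headed by Pla2g3, Chrdl1 and Aqp4. Of 3239 genes at 50 CPM or more in Astrocytes_1 of every mouse, 158 were above every other subtype in every mouse and 20 were at least 2 times above. These are descriptions, because the subtypes were defined from the same genes. Pla2g3, a secreted phospholipase A2 gene on chromosome 11 (chr11:3488284-3499350, plus strand, GRCm38), ranked first. It was at 125, 279 and 455 CPM in the WT mice and 178, 233 and 399 CPM in the Fmr1-KO mice, 7.9 to 84.5 times the next subtype of the same mouse, with 7.05 CPM in Astrocytes_2. Every mouse stood well clear of the other subtypes, although the level itself varied by more than 3 times between WT 1 and WT 3. Chrdl1, a secreted bone morphogenetic protein antagonist by which astrocytes promote synapse maturation, was at 206 ± 23.8 CPM (SD, n = 6), at least 4.65 times the next subtype in every mouse.

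Among the other leading genes, those of lipid metabolism were Scd1 (stearoyl-CoA desaturase, 495 CPM against 93.3 in OPC_1), Lcat (which esterifies cholesterol on lipoproteins, 89.3 against 16.7 CPM in Astrocytes_2), Tm7sf2 (a sterol reductase, 125 against 33.5 CPM) and the fatty acid binding proteins Fabp5 and Fabp7. Fabp7 reached 16810, 18518 and 15951 CPM in WT and 17375, 17084 and 23939 CPM in Fmr1-KO mice, and was 2.02 to 2.33 times the next subtype. Transporters among them were Slc4a4 (a sodium bicarbonate cotransporter, 2022 against 609 CPM), Slc14a1 (a urea transporter, 117 CPM against 22 in ependymal cells) and the GABA transporter Slc6a11 (1569 against 658 CPM). Receptors and regulators of signalling were Grm3 (a metabotropic glutamate receptor, 487 CPM against 140 in excitatory neurons), Fgfr3 (861 against 318 CPM), and Lrig1 (305 against 117 CPM). Dio2, which activates thyroid hormone, was at 320 against 114 CPM. Ncan, a matrix proteoglycan, was at 6883 ± 1101 CPM against 1576 in Astrocytes_2, and Sparcl1 (hevin, a secreted synapse organiser) at 5407 ± 527 CPM against 2182 in fibroblasts. Astrocytes_2 was the next subtype for most of these genes. With Astrocytes_2 left out, 228 genes were above every other subtype in every mouse and 66 by at least 2 times, led by Acsbg1 (a fatty acyl-CoA synthetase), Fgfbp3, Aldh1l1 (the folate enzyme widely used as an astrocyte marker) and Aldoc. Aldh1l1 was then at 474 ± 40 CPM against 30.4 in ependymal cells.

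**Figure D2:**
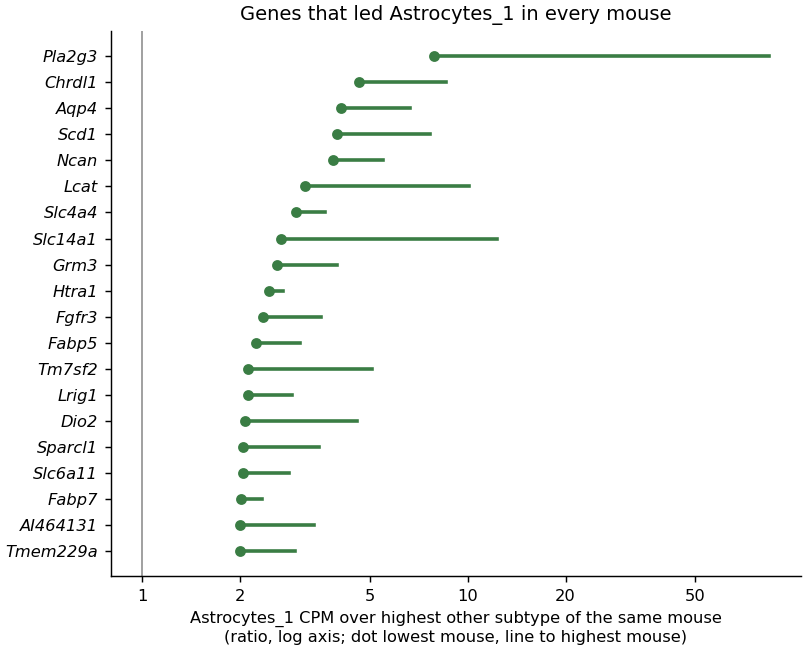
Ratio on a log axis of the CPM in Astrocytes_1 to that in the highest other subtype of the same mouse, for the 20 leading genes, with a dot at the lowest of the 6 mice and a line to the highest. All ratios are at least 2, and those of Pla2g3 run from 7.9 to 84.5.

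By function, genes of cholesterol and lipid metabolism were most often highest in Astrocytes_1. Of 34 such genes at 50 CPM or more in Astrocytes_1, 26 (76.5%) had their highest level here, against 391 of 3964 genes overall (9.86%). In this and the following counts, members below 50 CPM in Astrocytes_1 were left out, also where they were high elsewhere. The lists were drawn up around functions of astrocytes, so a share above that of all genes was partly set by the choice of members. They included the pathway genes Hmgcs1, Mvk, Pmvk, Mvd, Idi1, Fdps, Fdft1, Lss, Cyp51, Msmo1, Nsdhl, Sc5d and Dhcr7, together with the sterol regulators Srebf1, Srebf2 and Insig1. The margins were often small. Hmgcs1, the cytosolic HMG-CoA synthase, was at 1667 ± 158 CPM (SD, n = 6) against 1371 in Astrocytes_2, while Srebf2, the main transcription factor of sterol synthesis, was at 373 ± 44 CPM against 361 in OPC_1, which is within the spread between mice. Of 15 channels, pumps and junction genes, 9 (60%) were highest here, among them the potassium channel Kcnj10 (589 CPM against 299 in Astrocytes_2). Of 24 genes of transmitter uptake and metabolism 13 (54.2%) were highest here. They included Glul (glutamine synthetase, 3700 ± 676 CPM against 1989 in Astrocytes_2) and the glycine transporter Slc6a9 (303 against 126 CPM in ependymal cells). Secreted synaptic and matrix genes reached 11 of 25 (44%), glucose and lactate genes 7 of 20 (35.0%), genes of progenitors and maturation 11 of 35 (31.4%), and receptors 5 of 17 (29.4%). No member was highest here among the early response genes (0 of 22), genes of dividing cells (0 of 16) and cytosolic ribosomal proteins (0 of 80). The respiratory chain (6 of 75, 8.0%), metal binding (1 of 12, 8.33%) and genes of reactive astrocytes (1 of 7, 14.3%) were near the share over all genes.

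The sterol genes are shown with their promoter sequence because their coordinated regulation is read from short elements before the start. The 250 bases before the RefSeq start were taken from RefSeq (GRCm38.p6) for 26 of the 37 genes in the lipid list. Of these, 21 (80.8%) held CCAAT on either strand, a box bound by NF-Y, against 33.8% of 32851 windows of all genes. The letters TCACNCCAC, a form of the sterol regulatory element, occurred on either strand in 1 of 26 (3.85%), Hmgcs1, against 1.05% of all windows. A listed gene was counted if any of its windows matched, whereas the share over all genes counts single windows. A gene with several windows has more chances of a match, so these percentages are not in the same unit. A match describes the letters only. Hmgcs1 (chr13:119690101-119690350, plus strand) and Lss (chr10:76531355-76531604, plus strand) are printed 5′ to 3′, with every match of these motifs in capitals. ATTGG is CCAAT read on the other strand.
Hmgcs1: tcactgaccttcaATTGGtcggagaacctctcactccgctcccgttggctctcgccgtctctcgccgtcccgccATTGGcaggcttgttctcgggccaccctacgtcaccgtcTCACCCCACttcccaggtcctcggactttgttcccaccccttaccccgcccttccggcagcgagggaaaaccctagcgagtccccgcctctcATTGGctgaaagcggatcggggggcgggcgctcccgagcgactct
Lss: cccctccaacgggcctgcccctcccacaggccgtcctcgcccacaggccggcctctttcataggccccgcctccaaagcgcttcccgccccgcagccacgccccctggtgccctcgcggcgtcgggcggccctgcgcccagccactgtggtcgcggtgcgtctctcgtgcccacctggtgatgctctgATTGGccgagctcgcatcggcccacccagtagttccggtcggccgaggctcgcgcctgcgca
Hmgcs1 carried 3 matches of the CCAAT box and 1 of the sterol letters, and Lss carried 1 match of the CCAAT box. The matches do not overlap each other.

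Against Astrocytes_2, Astrocytes_1 was set apart most by higher Pla2g3, Serpinf1 and S100b and by lower Tfap2c. Of 3706 genes at 50 CPM or more in the higher subtype of every mouse, 657 were higher and 1042 lower in Astrocytes_1 in every mouse, and 81 and 65 of these by at least 2 times. Again these are descriptions of annotated clusters. On the higher side, Serpinf1 (the secreted pigment epithelium-derived factor) was at 122 ± 30.6 against 4.5 ± 3.28 CPM (SD, n = 6), and S100b, a calcium-binding protein of maturing astrocytes, at 147 ± 46.1 against 11.2 ± 4.86 CPM. Id3, an inhibitor of basic helix-loop-helix factors, was at 1890 ± 99.5 against 365 ± 73.6 CPM, and Car2, a carbonic anhydrase, at 736 ± 114 against 132 ± 28.6 CPM. The ranges of the 2 subtypes did not overlap for any of these 4 genes. On the lower side, Tfap2c, a transcription factor of cortical radial glia, was at 0.792 ± 0.753 against 72 ± 26.9 CPM. Sfrp1, a secreted Wnt antagonist made in the ventricular zone, was at 215 ± 21.9 against 1242 ± 202 CPM, and Fezf2, a transcription factor of cortical progenitors and deep-layer neurons, at 14.2 ± 2.77 against 121 ± 43.4 CPM. Myl9, a myosin light chain, was at 19.5 ± 4.28 against 134 ± 21.7 CPM.

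The lists were compared in the same way, beside 657 higher and 1042 lower of all 3706 genes. In Astrocytes_1, 54 of 73 respiratory chain genes were higher than in Astrocytes_2 in every mouse and none was lower, with a median log2 ratio of 0.46. Cholesterol and lipid genes were higher in 24 of 33 and lower in 1, with a median log2 ratio of 0.59. For transmitter uptake these numbers were 13 and 3 of 19, and for glucose and lactate genes 13 and 1 of 18. Genes of progenitors and maturation divided into 11 higher and 17 lower of 34. Of 5 Eph receptor and ephrin genes, which act in contact signalling, 1 was higher and 4 were lower.

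Spread among single Astrocytes_1 cells of 1 mouse, thinned to 700 UMIs, was described by the ratio of variance to mean. Over 2105 genes with a mean of at least 0.05 UMI the median ratio of variance to mean was 1.09, where 1 is expected from counting. Where cells differ, this ratio rises with the level of the gene, so a gene with few UMIs lies near 1 regardless. A ratio near 1 therefore does not show that the cells were alike. Apoe had the highest ratio, with a median over mice of 3.48 (2.64 to 3.89) at a mean of 4.61 to 8.11 UMIs per cell. Ncan (2.89), Fabp7 (2.73), Cst3 (2.59) and the immediate early gene Fos (2.25) came next. Gfap, the intermediate filament protein of mature and reactive astrocytes, had a ratio of 1.95 that ranged from 1.74 to 5.83 between mice, at a mean of only 0.0833 to 0.353 UMIs per cell. Top2a, a topoisomerase of dividing cells, was at 1.77. Gja1 (1.3) and Aldoc (1.36) had the lowest ratios among the 6 markers, though above that of the median gene.

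The authors' second round of clustering divided the subtype into 8 clusters of 252 to 1944 cells. Cluster 1 (986 cells) was led by Atoh8, Hspb8, Gfap and Serpinf1, with Gfap at 726 CPM against 108 in the remaining cells. Cluster 5 (408 cells) was led by the mitotic genes Ccnb1, Cdc20 and Plk1, and cluster 6 (576 cells) by S100b, the serine transporter Slc7a10 and the GABA-B receptor subunit Gabbr2. Cluster 7 (690 cells) held high levels of Luzp2 and of the early response genes Klf4, Fosb and Nr4a2, while cluster 8 (593 cells) differed little, with no leading gene above 1.61-fold. Cluster 10 (252 cells) was led by Kremen2, Sez6l and Slc7a10, and made up 14.9% of the members in Fmr1-KO 1 against 0.884% to 5.79% in the other mice. Clusters 4 (1944 cells) and 9 (922 cells) had median depths of 1557.5 and 1351.5 UMIs, against 4146 to 8782 in the other 6. Their leading genes were neuronal, such as Nrgn and Map1b in cluster 4 and Stmn2 and Tubb3 in cluster 9. The summed level of the excitatory markers was 375 and 596 CPM there, against 78.6 to 278 CPM in the other clusters. The part of RNA from neurons in these 2 clusters was not tested.

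Cluster shares varied from mouse to mouse more than by genotype. Cluster 4 held 51.5% of the members in WT 2, against 10.4% in WT 3, and cluster 9 held 33.2% in Fmr1-KO 2, against 8.06% in WT 3. Cluster 1 was 13.9%, 11.2% and 23.4% of the members in WT and 10.8%, 11.4% and 19.9% in Fmr1-KO mice. Its share was highest in the deepest mouse of each genotype. Over the 8 clusters, the lowest p of a two-sided exact permutation test between genotypes was 0.2, and 3 mice against 3 cannot give a p below 0.1. The part of depth in the cluster shares was not tested.

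**Figure D3:**
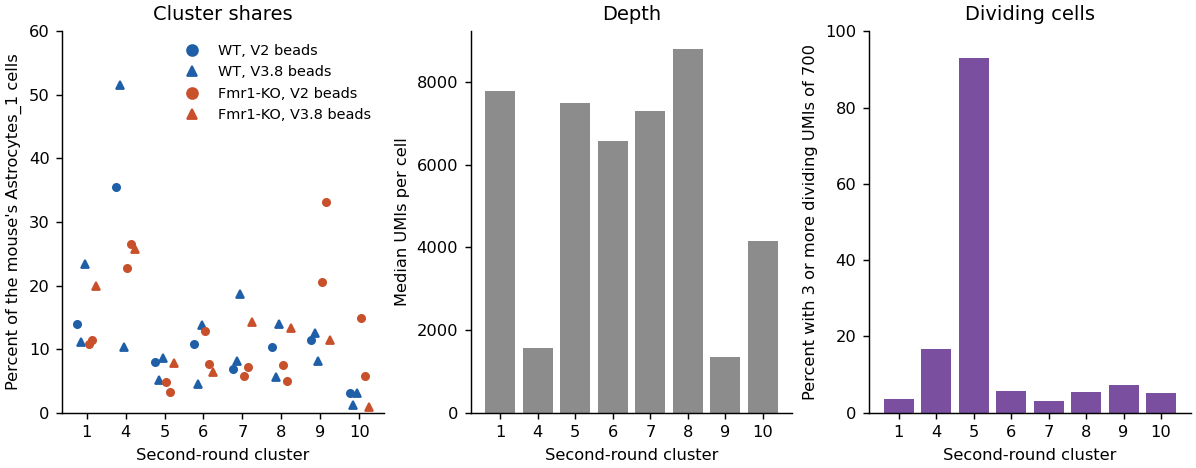
The authors' 8 second-round clusters of Astrocytes_1, by their share of the members of each mouse in percent (left, 1 point per mouse), median UMIs per cell (middle) and percent of cells with 3 or more UMIs of dividing genes after thinning (right). The genotypes overlap in every cluster, clusters 4 and 9 have the lowest depth (1557.5 and 1351.5 UMIs), and cluster 5 holds the highest share of dividing cells (93.1%).

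Part of the subtype was dividing at P5. A cell was counted as dividing with 3 or more UMIs over 48 genes of S phase, G2 and mitosis after thinning to 700 UMIs, which left out 6 shallower cells. The share was 16.6%, 16.2% and 12.4% in WT 1, 2 and 3 and 12.6%, 14.2% and 12% in Fmr1-KO 1, 2 and 3. WT 1 and WT 2 lay above all Fmr1-KO mice and WT 3 within their range. The same threshold was met by 1.22% to 11.2% of excitatory neurons and by 0% to 8.0% of oligodendrocytes, cells that should not divide. Astrocytes_1 was above the excitatory neurons of the same mouse in all 6 mice, but in Fmr1-KO 1 only at 12.6% against 11.2%. In Astrocytes_2 it was 6.25% to 11%, in OPC_1 26.4% to 36.5%, and in the ganglionic subtype 93.1% to 100%. The mean was 15.0% ± 2.33 in WT and 12.9% ± 1.14 in Fmr1-KO mice (SD, n = 3), a difference of -2.1 percentage points that did not pass a two-sided exact permutation test (p = 0.3). With shared barcodes counted once the means were 14.1% ± 1.92 and 12.5% ± 0.42 (n = 3; exact p = 0.4). Without thinning, when deeper cells pass more easily, the shares were 58.1% ± 13.1 and 52.7% ± 5.4 (n = 3; exact p = 0.6). The share is a range and not a class, since between 13 and 72 cells per mouse held exactly 3 UMIs and between 42 and 146 held 2. Cluster 5 held 380 of the dividing cells (93.1% of that cluster), and cluster 4 another 322 (16.6%).

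In Astrocytes_1 the targeted gene behaved as the labels say. Fmr1 (ENSMUSG00000000838, chrX:68678541-68717963, plus strand, GRCm38) was at 82.3, 80.3 and 80.1 CPM in WT 1, 2 and 3, and at 17.7, 18.1 and 18.3 CPM in Fmr1-KO 1, 2 and 3. The genotypes were far apart and the mice within each nearly level. The log2 fold change was -2.15 ± 0.11 (SE) with an adjusted p of 8.5e-05 by edgeR's quasi-likelihood test over 4814 genes, and it was -2.17 among mice with V2 beads and -2.10 among those with V3.8 beads. With shared barcodes counted once it was -2.14, and 1 gene was called as before. UMIs tag the 3′ end of a transcript, outside the interrupted exon, so they measure transcript and not protein. In WT mice Fmr1 had rank 4 among 16 subtypes, at 80.9 ± 1.19 CPM (SD, n = 3), after OPC_2 (121 ± 7.89 CPM), SVZ (107 CPM, from 1 mouse) and OPC_1 (95.2 ± 25.7 CPM). The ganglionic subtype (72.6 ± 11.5 CPM) and interneurons (70.9 ± 9 CPM) came next and overlapped with it, as did OPC_1. Excitatory neurons (64 ± 7.44 CPM) and Astrocytes_2 (63.9 ± 6.03 CPM) were below it in all 3 WT mice. The relatives Fxr1 and Fxr2 and the FMRP partner Cyfip1 had log2 fold changes between genotypes of -0.02, -0.13 and -0.00, and none passed the test.

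**Figure D4:**
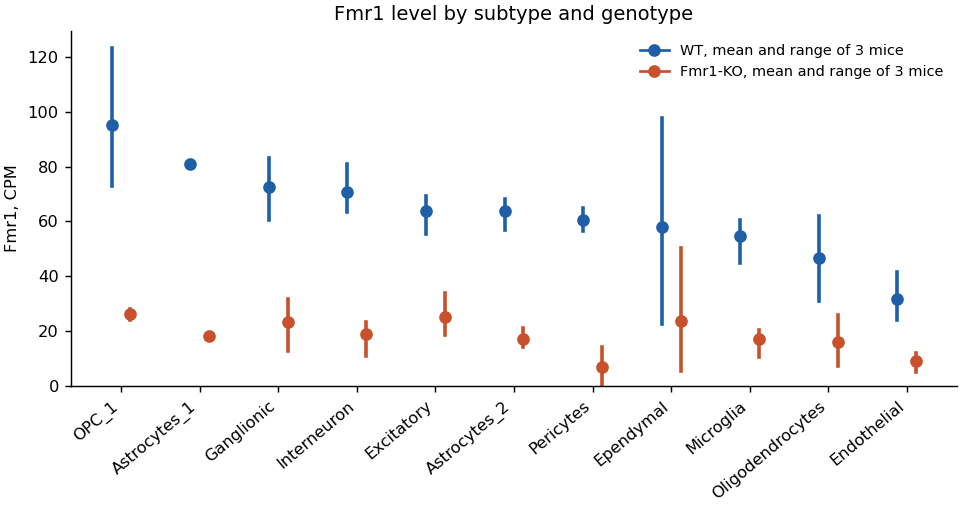
Fmr1 level in CPM in the subtypes with values in all 6 mice, as the mean (point) and range (line) of 3 WT and of 3 Fmr1-KO mice, ordered by the WT mean. In Astrocytes_1 the 3 WT mice lie between 80.1 and 82.3 CPM and the 3 Fmr1-KO mice between 17.7 and 18.3 CPM.

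Beside Fmr1 no gene passed the test between genotypes in Astrocytes_1. Of 4814 genes detected in 15% or more of the cells, 1 (0.0208%) passed the study's thresholds of FDR and fold change, and the next lowest adjusted p, of Entpd2, was 0.65 (edgeR, Benjamini-Hochberg). An unadjusted p under 0.05 was reached by 224 genes (4.65%), 105 higher (2.18%) and 119 lower (2.47%) in Fmr1-KO mice. The genotypes did not overlap in CPM in 299 genes (6.21%), with the Fmr1-KO mice above in 112 (2.33%) and below in 187 (3.88%). With DESeq2 in place of edgeR, Entpd2 had an adjusted p of 0.018, so 2 genes lay under an FDR of 0.05 and 1 was called. Without the filter on detection, 45 of 16062 genes were called. They included Entpd2, Rps27, Tns3, Mt1, Mt2, Rpl22l1 and Adora2b, which are described below from the filtered test, and microglial genes such as Cx3cr1, Cd74, Ccl3 and Ccl4. Without Fmr1-KO 3, Creg2 reached an adjusted p of 0.01 and 1 gene was called.

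The following genes had the smallest unadjusted p among those that did not overlap and had the same sign within both bead versions. None passed the test, and each is given as a value. Entpd2 (chr2:25395874-25401321, plus strand), an enzyme that hydrolyses extracellular ATP, was at 131, 91.7 and 91.4 CPM in WT and at 218, 180 and 133 CPM in Fmr1-KO mice. The lowest Fmr1-KO mouse, Fmr1-KO 3, was only just above WT 1, which had other beads. The log2 fold change was 0.58 ± 0.10 (0.59 with V2 and 0.53 with V3.8 beads). Rps27, a ribosomal protein, was at 142, 147 and 173 CPM in WT and at 181, 242 and 250 CPM in Fmr1-KO mice (log2 fold change 0.62 ± 0.12, adjusted p = 0.92, and 0.56 and 0.64 within the bead versions). Ephb3 (chr16:21204755-21223305, plus strand), a receptor for membrane-bound ephrins, was at 112, 94.3 and 91.6 CPM in WT and at 139, 132 and 135 CPM in Fmr1-KO mice. Here the Fmr1-KO mice lay close together and above all WT mice, with a log2 fold change of 0.42 ± 0.09 (0.27 and 0.53 within the bead versions). Gabbr1 (chr17:37045966-37075067, plus strand), the ligand-binding subunit of the GABA-B receptor, was at 486, 466 and 439 CPM in WT and at 617, 584 and 572 CPM in Fmr1-KO mice. Its log2 fold change was 0.33 ± 0.08, and 0.30 and 0.34 within the bead versions.

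For the other genes named, the pooled log2 fold change is followed by those within V2 and within V3.8 beads. On the higher side, Sema5b, a guidance protein, was at 0.37 (0.37 and 0.33) and Man1b1, a mannosidase of the endoplasmic reticulum, at 0.40 (0.43 and 0.33). Upf3b, of nonsense-mediated decay, was at 0.34 (0.21 and 0.43). Magt1, a magnesium transporter and oligosaccharyltransferase subunit, was at 0.32 (0.46 and 0.16), and Paqr7, a membrane progestin receptor, at 0.43 (0.71 and 0.14), so both were larger with V2 beads. Leaving out 1 mouse at a time moved Paqr7 between 0.15 and 0.73. On the lower side, Tns3, a tensin of focal adhesions, was at 182, 186 and 231 CPM in WT and at 127, 126 and 157 CPM in Fmr1-KO mice (log2 fold change -0.45 ± 0.11, with -0.52 and -0.40 within the bead versions). Zfp36, which destabilises AU-rich mRNAs, was at 328, 411 and 408 CPM in WT and at 263, 291 and 325 CPM in Fmr1-KO mice (log2 fold change -0.28 ± 0.08, with -0.25 and -0.33 within the bead versions). Idh3a, a subunit of the citric acid cycle enzyme isocitrate dehydrogenase, had a log2 fold change of -0.26 (-0.28 and -0.26) and Kcnj16, a potassium channel subunit, of -0.30 (-0.23 and -0.39). Per1, of the circadian clock, was at 56.4, 80.6 and 108 CPM in WT and at 41.7, 52.9 and 54.3 CPM in Fmr1-KO mice, a difference of -0.54 (-0.26 and -0.77) that ran from -0.80 to -0.25 with 1 mouse left out. All WT mice were above all Fmr1-KO mice, WT 1 only slightly. The lower side was completed by Vps41 at -0.35 (-0.31 and -0.39), Pdzd8 at -0.40 (-0.23 and -0.56), Msantd3 at -0.51 (-0.49 and -0.54) and Rin2 at -0.57 (-0.48 and -0.60). Atf5 was at -0.38 (-0.67 and -0.15), and between -0.66 and -0.14 with 1 mouse left out.

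**Figure D5:**
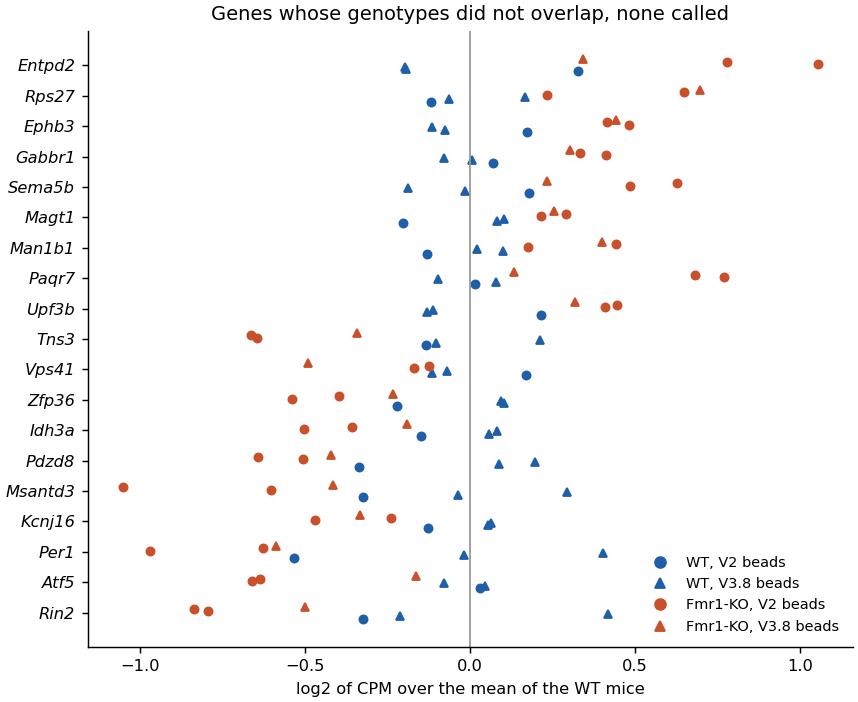
log2 of the CPM in each mouse over the mean of the 3 WT mice, for genes on the higher and the lower side with the smallest unadjusted p, with 1 point per mouse coloured by genotype and shaped by bead version. By the rule that chose them the genotypes do not overlap. Margins are narrow in several genes, as in Vps41 and Entpd2, and none of them passed the test.

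By function, none of the lists held a called gene other than Fmr1, so the counts below are of direction and of unadjusted p under 0.05. Over all genes tested, 50.5% had a log2 fold change above 0, with a median of 0.00. Of 34 cholesterol and lipid genes tested, 28 were higher in Fmr1-KO mice and 6 lower, with a median log2 fold change of 0.12 that was 0.16 with V2 and 0.05 with V3.8 beads. An unadjusted p under 0.05 was reached by 5 of them, all on the higher side. They were Srebf1, the sterol and fatty acid regulator (262, 225 and 249 CPM in WT against 325, 318 and 266 CPM in Fmr1-KO mice, log2 fold change 0.24), Sqle, squalene epoxidase (0.26), Lss, lanosterol synthase (0.26), Scd2, a desaturase (0.25), and Pmvk, of the mevalonate pathway (0.22). Within V2 and V3.8 beads these were 0.29 and 0.16 for Srebf1, 0.36 and 0.13 for Sqle, 0.21 and 0.28 for Lss, 0.15 and 0.33 for Scd2, and 0.06 and 0.34 for Pmvk. Over all mice Srebf1 and Sqle did not overlap between genotypes, whereas Lss, Scd2 and Pmvk overlapped, but only between mice with different beads. Within each bead version the Fmr1-KO mice were above the WT mice in these genes too. The margin was small for Pmvk with V2 beads (95.4 CPM in WT 1 against 95.9 CPM in Fmr1-KO 1). The adjusted p of all 5 was 0.92. Leaving out 1 mouse at a time moved the median between 0.05 and 0.19. Conversely, of 23 glucose and lactate genes 18 were lower and 5 higher, with a median of -0.08 (-0.05 with V2 and -0.11 with V3.8 beads) and no gene at an unadjusted p under 0.05. Of 18 receptors 14 were higher (median 0.09), with Gabbr1 and the adenosine receptor Adora2b under an unadjusted p of 0.05. This median was 0.26 with V2 and -0.02 with V3.8 beads, and -0.01 without WT 1. Adora2b (0.82) was at 38, 98.1 and 99.1 CPM in WT and at 155, 93.5 and 106 CPM in Fmr1-KO mice, and its log2 difference was 1.65 with V2 but 0.10 with V3.8 beads.

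Early response genes, which dissociation of the tissue can raise, were lower in 16 of 21, with a median of -0.09 and Zfp36 alone at an unadjusted p under 0.05. This median was -0.13 with V2 and -0.00 with V3.8 beads, and ran from -0.11 to 0.01 with 1 mouse left out. All 6 dividing genes tested were lower, with log2 fold changes of -0.25 to -0.06, and Pcna alone (-0.18, with -0.23 and -0.15 within the bead versions) at an unadjusted p under 0.05. Their median was -0.18, and it was -0.35 with V2 and -0.00 with V3.8 beads, and 0.00 without WT 1. Of 6 Eph receptor and ephrin genes 5 were higher (median 0.15, with 0.11 and 0.23 within the bead versions), with Ephb3 alone under an unadjusted p of 0.05. Transmitter uptake genes divided into 14 higher and 10 lower (median 0.02). Among them Slc38a2, a neutral amino acid transporter, was at 97.9, 94.7 and 86.7 CPM in WT and at 116, 113 and 108 CPM in Fmr1-KO mice (0.25, with 0.22 and 0.25 within the bead versions), and Psat1, of serine synthesis, at 522, 520 and 590 CPM against 444, 407 and 494 CPM (-0.22, with -0.29 and -0.16). The genes of water, ions and junctions divided into 8 and 9, secreted and matrix genes into 18 and 9, and progenitor and maturation genes into 19 and 16. Gpc1, a glypican, was at 0.37 (0.58 and 0.15), and between 0.16 and 0.62 with 1 mouse left out. Vim, vimentin, was at -0.22 (-0.23 in both). Vim was at 604, 573 and 604 CPM in WT and at 516, 517 and 502 CPM in Fmr1-KO mice, without overlap. Of 8 genes of reactive astrocytes 4 were on each side, with Ptx3 (0.44, with 0.29 and 0.51 within the bead versions) and Vim at an unadjusted p under 0.05. Gfap was at 240, 191 and 274 CPM in WT and at 351, 521 and 131 CPM in Fmr1-KO mice, so it was higher than in WT with V2 beads and lower with V3.8 beads.

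Metallothioneins varied widely among the WT mice. Mt1 was at 1049, 1674 and 2809 CPM in WT and at 852, 873 and 1200 CPM in Fmr1-KO mice, and Mt2 at 743, 1121 and 2177 CPM against 657, 607 and 793 CPM. In both, WT 3 was far above the rest and Fmr1-KO 3 was above WT 1, which had other beads. Within each bead version both genes were lower in every Fmr1-KO mouse than in any WT mouse. Their log2 fold changes were -0.58 ± 0.22 and -0.64 ± 0.28 (adjusted p = 0.92 for both). They were -0.28 with V2 and -0.85 with V3.8 beads for Mt1, and -0.23 and -0.98 for Mt2. Leaving out 1 mouse at a time moved them between -0.90 and -0.27 for Mt1 and between -1.05 and -0.22 for Mt2. Mtf1, the transcription factor of metallothionein genes, was at 44, 44.7 and 45.9 CPM in WT and at 32.2, 41.7 and 33.7 CPM in Fmr1-KO mice (-0.34, with -0.26 and -0.42 within the bead versions), without overlap. The zinc exporter Slc30a1 (0.23, with 0.18 and 0.25) and the manganese exporter Slc30a10 (0.22, with 0.34 and 0.09) were on the higher side. In all, 7 of 15 metal binding genes tested were higher and 8 lower. Ribosomal protein genes divided into 46 higher and 34 lower, and their median was -0.20 with V2 and 0.19 with V3.8 beads. Rpl22l1 (0.48, with 0.47 and 0.45 within the bead versions) and Rps27 were the 2 with an unadjusted p under 0.05. Respiratory chain genes were higher in 29 and lower in 46 (median -0.03), with Ndufv1 (0.26, with 0.27 and 0.23 within the bead versions), Ndufs5 (0.53, with 1.16 and 0.18) and Atp5c1 (-0.24, with -0.28 and -0.22) at an unadjusted p under 0.05. Leaving out 1 mouse at a time moved Ndufs5 between 0.18 and 1.20.

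A list of 13 genes among those that the study's text names for astrocytes or for all cell types was also read. As the study chose it on these same samples, it gives no independent evidence of direction. The study's text also names Slc30a10 as increased in astrocytes. That gene is not in the list, is given above with the metal binding genes, and has the same limit. Of the 13, 7 were higher and 6 lower, and 5 had an unadjusted p under 0.05, namely Ephb3, Gabbr1 and Slc6a9 on the higher side and Mt1 and Mt2 on the lower. Slc6a9, a glycine transporter, was at 300, 234 and 247 CPM in WT and at 415, 366 and 255 CPM in Fmr1-KO mice (0.24, and 0.38 and 0.08 within the bead versions). The V2 mice of the knockout were above all WT mice. Fmr1-KO 3 was slightly above WT 2 and WT 3, which had the same beads, and below WT 1, which had other beads. Gabbr2, the other subunit of the GABA-B receptor, was at 63.1, 48.3 and 52.9 CPM in WT and at 96.2, 80.4 and 52.7 CPM in Fmr1-KO mice, and the early endosome gene Rab5a at 181, 172 and 203 CPM against 154, 150 and 172 CPM. Apoe, Epha4, Sqstm1, Clstn1 and Sar1b had overlapping genotypes. Apoe, which the study names among genes lower in several cell types, had a log2 fold change of 0.13 (0.15 and 0.08 within the bead versions). The other genes of the list were on the side that the study names, which their choice on these samples made likely.

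The share of Astrocytes_1 among all cells except doublets was 31.1%, 49.3% and 43.6% in WT 1, 2 and 3 and 35.7%, 28.2% and 27.0% in Fmr1-KO 1, 2 and 3. The mean was 41.4% ± 9.3 in WT and 30.3% ± 4.7 in Fmr1-KO mice (SD, n = 3; two-sided exact permutation p = 0.2). With V2 beads WT 1 lay between the 2 Fmr1-KO mice, and with V3.8 beads both WT mice lay above Fmr1-KO 3. With edgeR on numbers of cells over 18 subtypes the log2 fold change was -0.37 ± 0.30 (adjusted p = 0.58), and it was 0.04 without Fmr1-KO 3 and -0.38 with shared barcodes counted once. Among astrocytes only, Astrocytes_1 made up 84.5%, 93.4% and 95.6% in WT and 86.6%, 83.2% and 84.6% in Fmr1-KO mice (means 91.1% ± 5.89 and 84.8% ± 1.68, n = 3; exact p = 0.3). WT 2 and WT 3 were above all other mice and WT 1 was within the range of the knockout. With shared barcodes counted once the difference was -6.29 percentage points, against -6.33 with all cells. Papain dissociation and loading of droplets set the shares of cells too, and their part was not tested.

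Whether genotype differed in its effect between Astrocytes_1 and other cells was tested as an interaction within mice. Against all 4139 neurons, 0 of 3030 genes passed an FDR of 0.05 by edgeR and 294 (9.7%) had an unadjusted p under 0.05. With a term for bead version by cell type, 10 genes passed, among them Pcna, Ccnd2, Smc4 and H2afv, with more negative genotype differences in Astrocytes_1, and Sparcl1 and Grm5, with more positive ones. These genes were named after their values were seen. For Pcna, a DNA replication clamp, the log2 fold change was -0.18 in Astrocytes_1 and 0.61 in neurons. The ganglionic cells, in which at least 93.1% met the threshold for dividing, numbered 119, 77 and 61 in WT 1, 2 and 3 and 118, 206 and 101 in Fmr1-KO 1, 2 and 3. The part of this cell number in the interaction was not tested. Against Astrocytes_2, 0 of 3888 genes passed and 213 (5.48%) had an unadjusted p under 0.05. The lowest adjusted p was 0.077, for Apcdd1, a Wnt inhibitor at the cell surface. Its log2 fold change was 0.45 in Astrocytes_1 and -0.83 in Astrocytes_2, where it was at 93.4, 178 and 130 CPM in WT and at 95.5, 57.6 and 58.3 CPM in Fmr1-KO mice. With the term for bead version, Apcdd1, Gadd45g and Cst3 passed. Leaving out 1 mouse at a time gave between 0 and 6 genes.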

How the data were processed

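InDrop libraries were made from the P5 cortex of 3 WT and 3 Fmr1-KO animals. Per the labels the reads were demultiplexed with bcl2fastq and aligned to mm10 with TopHat2 2.0.14. The authors deposited raw UMI counts per gene and cell (17418 genes, 18393 cells; the study kept cells of 700 UMIs or more, and 6 Astrocytes_1 cells were under this in the deposited genes) and a table of other annotations with each cell's library, subtype, second-round cluster and doublet call. Cell names gave the mouse for every column, and 0 columns belonged to no mapped sample. The 1113 doublets called by the authors were left out, and no caller was run again.

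Counts were summed per mouse over Astrocytes_1 and tested with edgeR 4.0.16 (R 4.3.3; TMM, quasi-likelihood, bead version as a term, Benjamini-Hochberg adjustment) over 4814 genes detected in 15% or more of the cells, at an FDR under 0.01 and at least 1.15-fold. The bead version and the gene filter follow the study's methods, but cells were not used as replicates. Shares were compared by two-sided exact permutation tests. Interactions used the mouse as a block and an FDR of 0.05. Level comparisons used subtypes with at least 10 cells in a mouse, a CPM minimum of 50, and 0.5 CPM added before ratios. Cells were thinned to 700 UMIs for counts of genes, spread and dividing cells. The genotype test was run on simulated counts of 4814 genes, 200 of them changed, with no bead effect simulated. At a log2 fold change of 1 it called 100% of the changed genes and 10 others. At 0.5 it called 36% of them and 2 others. With no gene changed it called 0.

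Named genes were Fmr1 and its relatives, the given markers, genes named by the study, any called gene with the 10 higher and 10 lower genes of smallest p that did not overlap and kept their sign within bead versions, members of each list at an unadjusted p under 0.05 with up to 4 abundant members, and leading genes by ratio over other subtypes. The subtype and these lists were chosen with earlier results of these data known. Alternatives were library sizes without TMM, DESeq2 1.42.0, other filters, no bead term, a replicate block, thinned cells, each mouse left out and, added after the data were seen, shared barcodes counted once and removal of 2 low-depth clusters. Genes named for clusters, interactions, bead versions or Y-linkage, and Creg2, were chosen after their values were seen. Some genes that the naming rules chose are not reported here. Coordinates are from a GRCm38 annotation, and promoter windows from RefSeq. Intervals between mice depend on 3 mice per genotype, and depth ranged from 2760075 to 11155033 UMIs.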

Additional observations from a re-analysis of the deposited data

How the results depend on the processing

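Fmr1 kept its direction and its side of the threshold under every alternative run, with log2 fold changes from -2.24 to -1.90 (cells thinned to 700 UMIs), -2.18 to -2.12 with 1 mouse left out and -2.14 with shared barcodes counted once. The number of genes called between genotypes was 1 throughout, except for 45 with no filter on detection, when 16062 genes were tested. The interaction gave 10 genes against neurons and 3 against Astrocytes_2 with a term for bead version by cell type, and 0 to 6 against Astrocytes_2 with 1 mouse left out (1 gene when WT 1 or WT 2 was left out, 2 when Fmr1-KO 1 was and 6 when Fmr1-KO 3 was). The share of cells in Astrocytes_1 moved between -0.78 and 0.04 on the log2 scale with 1 mouse left out, and the sign turned without Fmr1-KO 3 (0.036). The cause was not tested for any of these.

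Among 41 single genes beside Fmr1, 39 kept their direction under every alternative. These genes were named for a small unadjusted p in these same mice, part of them also for the same sign within both bead versions. A kept direction was therefore largely set by that choice and gives no support to single genes. Pmvk turned to -0.014 with no bead term and -0.044 with the replicate block, and Ndufs5 to -0.20 and -0.090. Deviations of same-numbered mice correlated at 0.668, -0.438 and 0.675, and the negative value was the pair with different beads. Over all pairs of a WT and an Fmr1-KO mouse, the correlation was positive with the same beads and negative with different beads. These values therefore cannot tell whether the replicate number pairs the mice. With the number as a replicate block Fmr1 was at -2.16, 1 gene was called and the log2 difference in share was -0.44, so the block changed no call of a comparison. No gene named beside Fmr1 passed the thresholds in the comparison of 3 mice per genotype, and a difference that misses them is not shown to be absent. Without the filter on detection, Entpd2, Rps27, Tns3, Adora2b, Mt1, Mt2 and Rpl22l1 were among those that passed, as was Creg2.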
